A study of Bos taurus with 8 samples.

Results

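The 10 genes described here set the pace of the G1 phase and were followed in cattle, in somatic cells (SCs) and in stem-like cells grown from embryos (eSLCs): the D-type cyclins CCND1, CCND2 and CCND3, their kinases CDK4 and CDK6, the CDK inhibitors CDKN1A, CDKN1B and CDKN2B, the retinoblastoma gene RB1 and the transcription factor gene E2F1. They were chosen by name, and a probe was assigned to a gene when its RefSeq accession, read without the version, belonged to that gene in the cattle RefSeq table. All 10 were found among the 12603 genes that could be named on the array, with 19 probes of 26743.

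In G1, mitogens raise the D-type cyclins, which activate CDK4 and CDK6. These kinases, and later CDK2 with cyclin E, phosphorylate RB1, which then lets go of E2F factors so that genes for DNA replication are transcribed. CDKN2B (p15) blocks CDK4 and CDK6, CDKN1A (p21) and CDKN1B (p27) act mainly on CDK2 complexes. Early embryos and embryonic stem cells are known for a short G1 phase, and cultured fibroblasts for one that depends on mitogens and lengthens as the cells age.

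Total RNA of 8 samples of HanWoo cattle was measured, each on its own one-colour Agilent bovine array. The eSLC lines I2 (passage 35) and I9 (passage 30) came from in vitro produced (IVP) embryos, N2 (passage 36) and N7 (passage 30) from nuclear transfer (NT) embryos made with ear skin donor cells, and P1 (passage 31) and P4 (passage 36) from parthenogenetic (PA) embryos. Each eSLC line is 1 embryo outgrowth kept in medium with 3 inhibitors, PD184352 against MEK, SU5402 against FGF receptors and CHIR99021 against GSK3, on mitomycin-C treated murine STO feeder cells. The SCs, at passage 5 and passage 10, grew in DMEM with 10% serum and without the inhibitors, and the labels do not name their tissue. Cell type, culture medium and passage number therefore cannot be told apart in any comparison with SCs. Slide 1 carried I2, I9, N7 and SC P5, and slide 2 carried P1, P4, N2 and SC P10. The 2 eSLC arrays of a group held lines from separate blastocysts, whose parent animals are not stated. Nothing states that SC P5 and SC P10 were separate animals or cultures beyond their passage. P-values therefore measure the spread between these arrays, and the number of arrays limits their precision.

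Signals are given as the background-subtracted intensity over the array's 75th percentile, taken as 1000. The lowest signal that the scanner software marked as well above background lay between 7.34 and 13.3 on this scale, and 71.1% to 76.7% of probes were so marked on an array. Among eSLC arrays the correlation of log2 signals ran from 0.947 to 0.994, with the closest pair, I9 and N2, of different origin and slide. It was 0.993 between the SC arrays and 0.763 to 0.798 between eSLC and SC arrays. The labelled cell types were checked against markers. Trophectoderm genes were high in the eSLCs, with 11 of 12 tested higher than in SCs: CDX2, which specifies that lineage, had signals of 5183 to 14887 in eSLCs and of 1.30 and 0.331, not well above background, in SCs. Some of the 11, CDX2 among them, passed the filter on low signals through the eSLC arrays alone. With the filter on all 8 arrays 7 were called higher. Of 5 inner cell mass markers tested, LIN28A was called higher and SOX2 and KLF4 lower in eSLCs. LIN28A read 187 to 316 in the lines, and 1.80 and 0.42 in SCs, not well above background. It too passed the filter through the eSLC arrays alone. POU5F1 was at 898 in N7 and 30.7 to 101 in the other 5 lines, against 16.3 and 26.0 in SCs, and NANOG at 5.80 to 35.4, against 6.96 and 2.48. A second NANOG probe read 202 in N7 and was not well above background on any other array. By these markers all 6 lines labelled stem-like had high trophectoderm genes, while inner cell mass markers differed from gene to gene. Line N7 stood apart on some hypoblast markers. GATA4 read 2918 in N7 and 23.1 to 180 in the other lines, with 19.1 and 18.4 in SCs, and HNF4A 9022 in N7 and 8.17 to 23.4 in the others. The dimmer probes read far less in N7, 41.9 for GATA4 and 11.2 to 39.9 for HNF4A. The SOX17 probe used did not set N7 apart, at 2664 against 1908 to 2946 in the other lines. A second SOX17 probe read 966 in N7 and 34.2 to 205 in the others. The mean log2 signal over the hypoblast list was 11.63 in N7, 6.71 to 7.48 in the other lines and 7.92 and 8.05 in SCs. Of 4 hypoblast markers tested 1, PDGFRA, was called lower and 0 higher over all lines. Without N7, CCND1 (-3.25), RB1 (-3.73), CDKN2B (-7.42) and CDKN1A (-1.54) were still called lower and none of the 10 genes higher. Of 11 fibroblast markers tested 10 were lower in eSLCs, among them VIM at 780 to 4410 in eSLCs and 174176 and 214488 in SCs. The mean log2 signal over the fibroblast list was 7.79 to 8.42 in eSLCs and 14.06 to 14.21 in SCs, and that over the trophectoderm list 14.07 to 15.11 and 7.37 to 7.66. The part of this change of cell type in the differences below was not tested.

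The study designed RT-PCR primers for CCND1, which of the 3 D-type cyclins differed most between the cell types. The PCR values were not analysed here, and the primers are shown in lower case, 5′ to 3′, to identify the transcript that the study also followed by PCR.
CCND1 forward primer: agcagaagtgcgaggaagag
CCND1 reverse primer: gccaggttccacttgagttt
Both primers are 20 bases long.

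In eSLCs 4 of the 10 genes were lower than in SCs and 0 were higher. CDKN2B, RB1, CCND1 and CDKN1A fell, so that an accelerator of G1, CCND1, and 3 of its brakes moved in the same direction. A gene was called when limma's adjusted p (Benjamini-Hochberg over 10956 genes tested) was under 0.05 and the groups differed at least 2-fold. By that rule 15.7% of all genes tested were called lower and 19.7% higher, and the median of all genes was 0.23 on the log2 scale, while the median of the 10 genes was -0.70. In the same 4 genes every eSLC array lay below both SC arrays. That was so for 23.9% of all genes tested, and 35.9% lay entirely above.

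**Figure D1:**
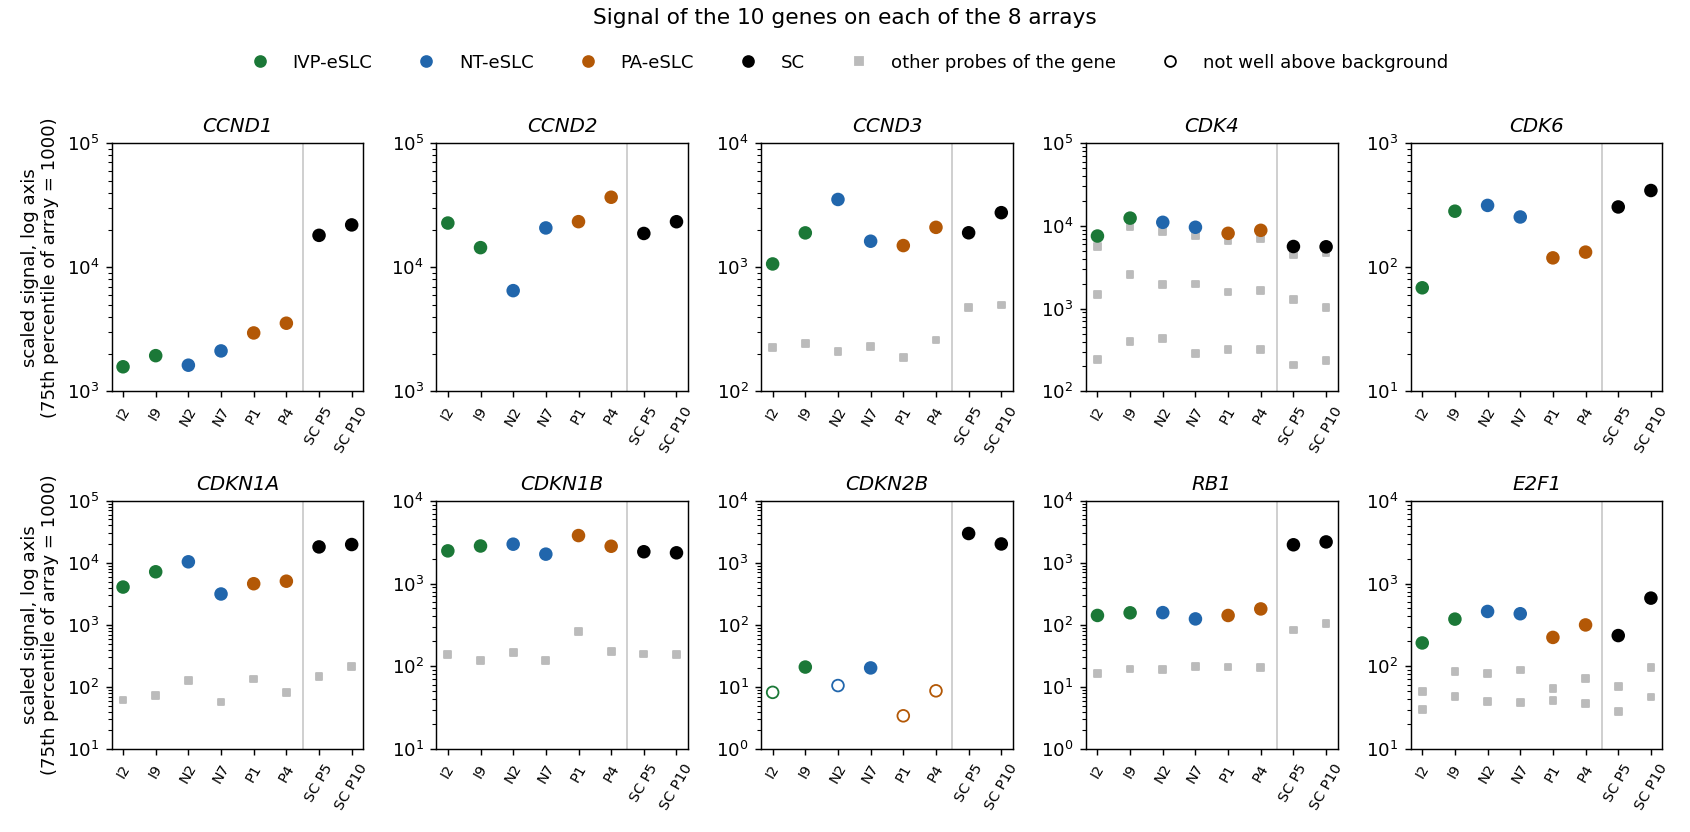
Signal of each gene (log axis, 75th percentile of the array at 1000) on the 6 eSLC arrays and the 2 SC arrays, in circles for the probe used and grey squares for the other probes of the gene, with open symbols where the signal was not well above background. CCND1, CDKN1A, CDKN2B and RB1 lie lower on all 6 eSLC arrays than on both SC arrays, CDK4 lies higher, and the other 5 genes overlap.

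Among the D-type cyclins CCND1 was lower in all lines. Its signal was 1579 in I2, 1941 in I9, 1626 in N2, 2119 in N7, 2958 in P1 and 3543 in P4, against 18088 at passage 5 and 21950 at passage 10 of the SCs. The PA lines were the highest of the eSLCs, and still far under both SC arrays. The difference was -3.18 on the log2 scale (standard error 0.196, 95% interval -3.67 to -2.70), or 9.09-fold lower, with limma's adjusted p = 0.000102.

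CCND2, a D-type cyclin often expressed in place of CCND1, was not called. Its signal was 22725 in I2, 14398 in I9, 6483 in N2, 20751 in N7, 23315 in P1 and 36673 in P4, against 18730 and 23288 in SCs. The eSLC lines spread 5.66-fold, the widest range of the 10 genes, and enclosed both SC values. The difference of -0.19 had a 95% interval of -1.36 to 0.98, which includes a 2-fold fall and ends just short of a 2-fold rise. Without N2 the difference was 0.09.

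CCND3 had a signal of 1064 in I2 and 3519 in N2, the ends of the eSLC range, with 1897 and 2755 in SCs. The difference of -0.33 was not called (95% interval -1.30 to 0.64). A second, dimmer probe of CCND3 read 188 to 259 in the 6 eSLC lines and 475 and 497 in SCs, with no overlap, and was called lower by 2.16-fold when each probe was fitted on its own (limma, adjusted p = 0.00365). The direction of CCND3 was the same in both probes, and its call depends on the probe.

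CDK4, the main kinase partner of the D-type cyclins, stood higher in every eSLC line. Its signal was 7548 in I2, 12425 in I9, 11051 in N2, 9630 in N7, 8139 in P1 and 8846 in P4, against 5639 and 5594 in SCs. The groups did not overlap, but the difference of 0.75 (95% interval 0.21 to 1.30, limma, adjusted p = 0.0350) was 1.69-fold and under the 2-fold limit. The 4 probes of CDK4 gave differences of 0.57 to 0.75.

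CDK6, the second of these kinases, was more uneven. It read 68.4 in I2, 283 in I9, 315 in N2, 254 in N7, 119 in P1 and 133 in P4, against 306 and 416 in SCs. N2 lay between the SC arrays, while I2, P1 and P4 lay well below either. Over all lines the difference of -1.07 was not called (95% interval -2.34 to 0.21, limma, adjusted p = 0.141). Without I9 it was -1.41 and called (limma, adjusted p = 0.00649).

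The inhibitors divided. CDKN2B, which binds CDK4 and CDK6, had a signal of 2971 in SC P5 and 2016 in SC P10. In eSLCs it was well above background only in I9, at 20.9, and N7, at 20.3. It read 8.19 in I2, 10.5 in N2, 3.43 in P1 and 8.67 in P4, none well above background. CDKN2B passed the filter on low signals through the SC arrays alone. Against the PA lines, in neither of which it was well above background, SCs were at least 224-fold higher when each PA array was set to its own lowest signal well above background (11.6 in P1 and 10.3 in P4), and 184-fold at the common floor of 13.3. In the fit with signals raised to that floor, the difference of all eSLCs was -7.31 (standard error 0.282, limma, adjusted p = 1.72e-05), a value that depends on the floor and is not a bound.

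CDKN1A had a signal of 3150 in N7 at the low end and 10402 in N2 at the high end of the eSLC lines, with 4074 in I2, 7180 in I9, 4611 in P1 and 5064 in P4. SCs read 18070 and 19739. All lines were below both SC arrays, though spread 3.30-fold among themselves. The difference was -1.83 (standard error 0.472, 95% interval -2.99 to -0.67), 3.56-fold lower, with limma's adjusted p = 0.0225. The call was lost without P1, without P4, without either SC array and with the SC arrays counted as 1 sample, with values of -1.89 to -1.77 (limma, adjusted p = 0.0530 to 0.153). The dimmer second probe fell by 1.08 on the log2 scale and was not called (limma, adjusted p = 0.0615).

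CDKN1B, by contrast, differed little. Its signal was 2266 to 3801 in eSLCs, with a median of 2833, and 2423 and 2352 in SCs. The difference of 0.25 had a 95% interval of -0.24 to 0.73, so that a change of 2-fold in either direction lay outside the interval. Its second probe gave 0.10.

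RB1, the brake on E2F factors, was the most even of the 10 genes among the eSLC lines, within 1.45-fold. It read 142 in I2, 157 in I9, 158 in N2, 125 in N7, 142 in P1 and 181 in P4, against 1956 and 2175 in SCs. Every line was more than 10-fold under either SC array. The difference was -3.78 (standard error 0.182, 95% interval -4.23 to -3.34), or 13.8-fold lower, with limma's adjusted p = 3.73e-05. A dimmer second probe read 16.5 to 21.4 in eSLCs and 83.2 and 105 in SCs, a fall by 2.25 on the log2 scale (limma, adjusted p = 0.000222 with each probe on its own).

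E2F1, which RB1 restrains, was not called. The eSLC lines read 192 in I2, 372 in I9, 460 in N2, 432 in N7, 223 in P1 and 316 in P4. The SC arrays were 2.83-fold apart, 235 at passage 5 and 667 at passage 10, and enclosed all but I2 and P1. The difference of -0.32 (95% interval -1.45 to 0.80) turned to 0.43 without SC P10 and to -1.08 without SC P5. The 3 probes of E2F1 gave -0.32, -0.08 and 0.07.

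**Figure D2:**
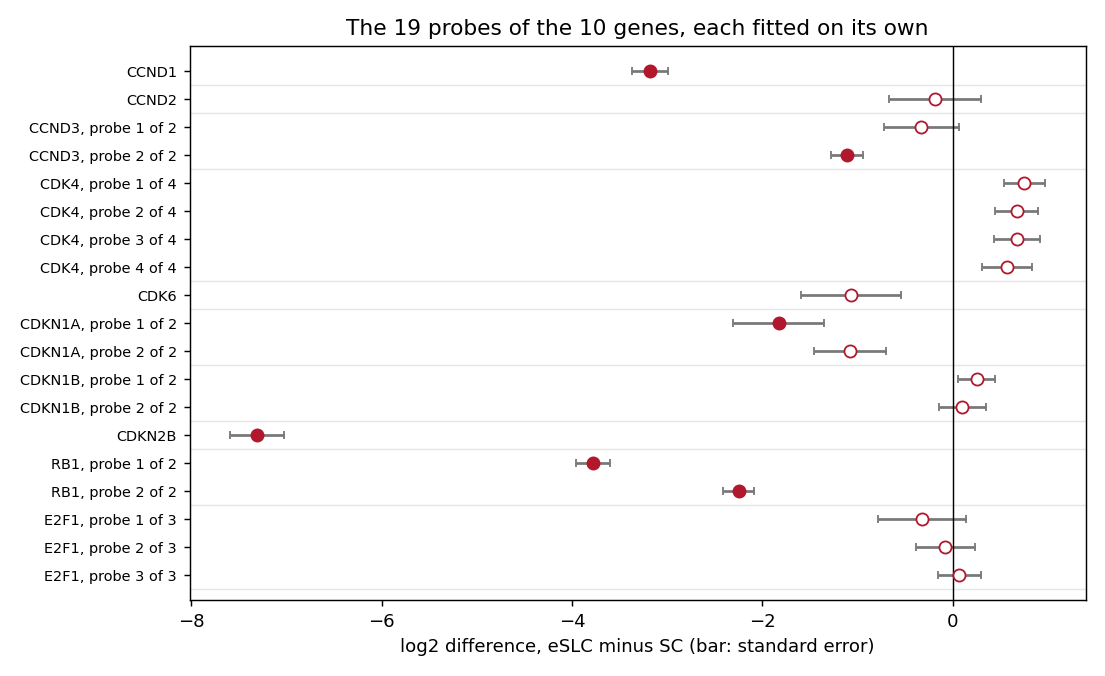
Log2 difference, eSLC minus SC, of each of the 19 probes with its standard error, ordered by gene and from the brightest probe down, with filled points for probes called. Probes of RB1 and CDKN1A lie on the same side for each gene, the 4 probes of CDK4 lie between 0.57 and 0.75, and the second probe of CCND3 is called while the first is not.

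The spread among the 6 eSLC lines told the genes apart as well. The SD of log2 signals was 0.18 for RB1, 0.26 for CDKN1B and 0.27 for CDK4, under the median of 0.35 over all genes tested. It was 0.85 for CCND2 and 0.87 for CDK6. For CDKN2B, at 0.33, most values lay at the floor. Between the passages of SCs the absolute log2 difference was 0.15 for RB1, 0.28 for CCND1 and 1.50 for E2F1, against a median of 0.21 over all genes tested.

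The 3 origins were next compared with SCs one at a time, on the same 2 SC arrays. CCND1, CDKN2B and RB1 were called lower in each. In IVP-eSLCs 3 of the 10 genes were called lower (14.6% of all genes tested) and 0 higher (17.7%), in NT-eSLCs 3 lower (13.9%) and 0 higher (15.8%), and in PA-eSLCs 4 lower (14.9%) and 0 higher (20.4%). CCND1 was 11.4-fold lower than in SCs in IVP-eSLCs, 10.7-fold in NT-eSLCs and 6.16-fold in PA-eSLCs. RB1 was 13.8-fold, 14.7-fold and 12.9-fold lower. CDKN1A differed by -1.80 in IVP-eSLCs (limma, adjusted p = 0.0537), by -1.72 in NT-eSLCs (limma, adjusted p = 0.0651) and by -1.97 in PA-eSLCs (limma, adjusted p = 0.0386), and the last alone passed. That call was lost without any 1 of the IVP, PA or SC arrays (limma, adjusted p = 0.0514 to 0.170), while CDKN1A was called lower in IVP-eSLCs without N2 or without N7 and in NT-eSLCs without N2. Without I2, CDK4 was called higher in IVP-eSLCs.

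**Figure D3:**
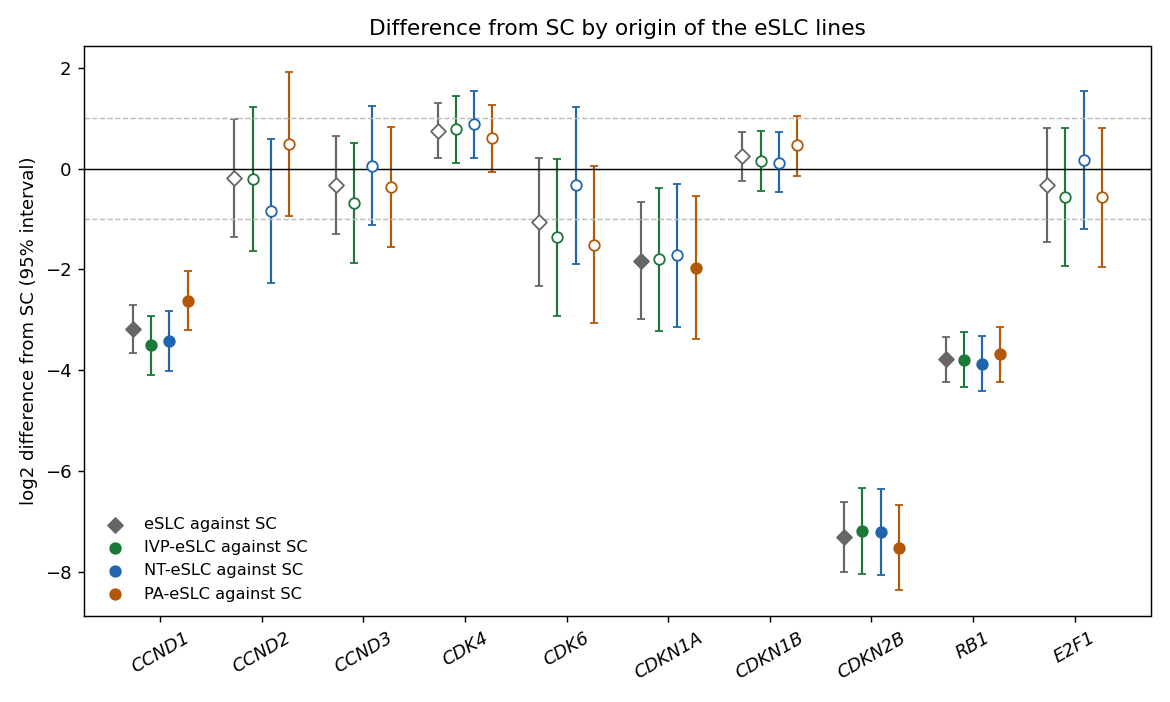
Log2 difference from SCs with its 95% interval for all eSLCs (diamonds) and for the IVP, NT and PA lines (circles), with filled symbols for calls and dashed lines at 2-fold. CCND1, CDKN2B and RB1 are filled in all 4 comparisons, CDKN1A in 2, and the other 6 genes are open in all 4.

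Between origins none of the 10 genes was called, and neither was any other gene: 0 of 10956 in NT- against IVP-eSLCs (0.0%) and 0 in PA- against IVP-eSLCs (0.0%) by limma. Before adjustment, p was under 0.05 for 306 and 568 genes, and of these 0 and 1 were among the 10. The 1 gene was CCND1, which was 1.85-fold higher in PA- than in IVP-eSLCs (log2 0.89, 95% interval 0.30 to 1.48, limma, unadjusted p = 0.0104 and adjusted p = 0.851), with both PA lines above both IVP lines. The IVP arrays shared slide 1 and the PA arrays slide 2. NT and SC arrays lay on both, so the slide could enter the fit as a block, and the difference was then 0.94 (limma, adjusted p = 0.934). The largest difference between NT- and IVP-eSLCs was that of CDK6, at 1.03 (95% interval -0.53 to 2.58), and it was 0.00 without I2. For RB1 the intervals were -0.63 to 0.46 in NT- against IVP-eSLCs and -0.44 to 0.65 in PA- against IVP-eSLCs, so a 2-fold difference between these origins lay outside them. For CDKN1A they were -1.33 to 1.50 and -1.58 to 1.25, and a 2-fold difference could not have been told from none.

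Each slide held eSLC and SC arrays, which allowed the comparison within a slide. CCND1 differed by -3.23 within slide 1 and by -3.26 within slide 2, RB1 by -3.84 and -3.77, and CDKN1A by -2.13 and -1.48. CDKN2B differed by -7.34 and -7.25. Most of its eSLC values lay at the floor, so these differences mainly follow the SC signals. Each slide held 1 SC array, and of the 10 genes CDKN2B alone passed as a call, within slide 2. There its eSLC signals, 10.5 in N2, 3.43 in P1 and 8.67 in P4, were all raised to the floor. They had no spread left, so that call rests on the floor and is given no weight. E2F1 went from 0.53 within slide 1 to -0.93 within slide 2, the slide of the brighter SC array. With the slide as a block in the fit of all arrays, the same count of 4 was called lower.

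**Figure D4:**
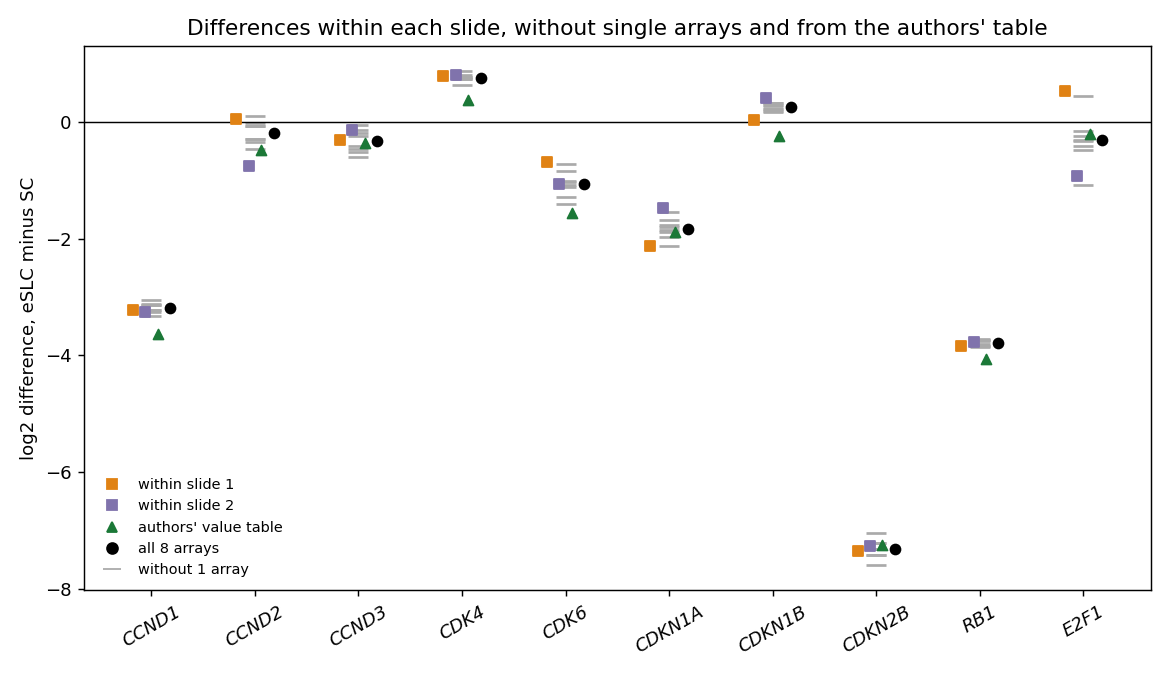
Log2 difference, eSLC minus SC, of each gene from all 8 arrays, within each slide, without 1 array at a time, and from the table of values that the authors processed. CCND1 and RB1 keep their size within each slide, CCND2, CDKN1B and E2F1 cross 0, and CDKN1A stays below 0 throughout. CDKN2B keeps its size too, with most of its eSLC values at the floor.

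Other genes of the G1/S machinery moved in both directions. Of 24 genes listed 18 were named on the array and 17 were tested, and 6 were called higher and 2 lower in eSLCs, with a median of 0.58. Over all genes tested 19.7% were called higher and 15.7% lower. The cyclin E gene CCNE1 and its kinase were among the higher ones: CDK2 was 4.34-fold higher (limma, adjusted p = 0.00586) and CCNE1 3.19-fold (limma, adjusted p = 0.0168). The other cyclin E gene, CCNE2, differed by 0.57 (95% interval -0.72 to 1.87) and was not called. CDC25A, the phosphatase that activates CDK2, was 3.77-fold higher. On that probe SC P5 read 10.9, under the common floor, so the fold depends on the floor. The dimmer CDC25A probes gave 0.80 and 0.15, neither called on its own (limma, adjusted p = 0.0478 and 0.537). On both of them the SC signals were not well above background. They were raised to the floor, which limits the size of these differences, so the dimmer probes cannot show whether the change was smaller. The call of CDC25A rests on its brightest probe. The CDK-activating kinase has the subunits CCNH, MNAT1 and CDK7. CCNH was 2.56-fold and MNAT1 2.01-fold higher, and CDK7 differed by 1.59 without passing (limma, adjusted p = 0.0520). The other CDK7 probes gave 1.82 and 1.80, both called on their own (limma, adjusted p = 0.0181 and 0.0270). The call of CDK7 thus depends on the probe. Without SC P5 3 of these genes were called higher, with CCNE1, CDC25A and MNAT1 lost. CCNE1 and MNAT1 were also lost without SC P10, and MNAT1 without I2, N2 or P1.

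One inhibitor went the other way from CDKN2B and CDKN1A. CDKN1C (p57), an inhibitor of the same family as CDKN1A and CDKN1B, had a signal of 15705 in I2, 4776 in I9, 6495 in N2, 8301 in N7, 41176 in P1 and 18933 in P4, against 1957 and 801 in SCs. All lines were above both SC arrays, and the difference of 3.27 was 9.67-fold (limma, adjusted p = 0.00630). Without SC P10 it was 2.63 and not called (limma, adjusted p = 0.0810). CDKN2C (p18), of the same family as CDKN2B, differed by -0.34 and CDKN2D (p19) by -0.75, neither of them called. A dimmer second probe of CDKN2C read 193 to 374 in eSLCs and 955 and 1474 in SCs, and was called lower by 4.38-fold when fitted on its own (limma, adjusted p = 0.00307), so that the call of CDKN2C depends on the probe.

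Of the pocket proteins related to RB1, RBL2 (p130), which prevails in resting cells, was also lower, at 35.6 to 58.8 in eSLCs and 306 and 349 in SCs. Its difference was -2.79, or 6.92-fold lower (limma, adjusted p = 7.37e-05), and its 5 probes gave values from -2.79 to -0.06. The probe at -0.06 read 2.04 to 3.64 in eSLCs and 9.72 and 14.4 in SCs. Only SC P10 passed the floor of 13.3 there, so this probe cannot show whether RBL2 changed. The other probes gave -2.79 to -1.65, each called lower on its own. RBL1 (p107), which prevails in cycling cells, differed by 0.53 and was not called. Among the E2F partners E2F3 was 2.43-fold lower (limma, adjusted p = 0.00311; not called with normexp background correction, at -0.83, or in the authors' table, at -1.90), while E2F4, E2F6 and TFDP1 differed by 0.39, 0.58 and 0.49 without a call.

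Of 20 known targets of E2F factors tested, 12 were called higher, 0 lower and 8 neither, with a median of 1.23. ORC1, of the complex that marks replication origins, was 10.4-fold higher, CDC6, which loads the replicative helicase, 6.05-fold, and MYBL2, a cell cycle transcription factor, 3.53-fold. Of 14 proliferation markers tested 7 were called higher and 0 lower, with a median of 0.95, among them the mitotic kinase genes AURKA (4.17-fold) and CDK1 (3.51-fold) and the cyclin CCNB1 (2.47-fold). Without SC P5 the counts were 6 for E2F targets and 2 for proliferation markers, with CCNB1 lost, and without I9 or P4 the latter was 4. CDC7, a kinase that fires replication origins, went the other way, by -0.81, under the 2-fold limit (limma, adjusted p = 0.00954). The share called higher over all genes was 19.7%.

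Of 14 genes tested that mitogens induce through the MEK and ERK kinases, 7 were called lower, 0 higher and 7 neither, with a median of -1.32. Over all genes tested 15.7% were called lower. JUNB, a subunit of the AP-1 factor, was 5.80-fold lower, FOSL1, another subunit, 8.67-fold, and SPRY2, a feedback inhibitor of receptor kinases, 4.09-fold. ETV5, a factor of the ETS family, read 384 and 536 in SCs and was well above background in 1 of the 6 eSLC lines, N7, at 22.2. It passed the filter on low signals through the SC arrays, and its fitted difference depends on the floor. The feedback genes DUSP6 (-0.01), SPRY4 (0.00) and DUSP4 (0.51) were not called. SPRY4 read below the common floor on every array, so its 0.00 was set by the floor and cannot show whether it changed. DUSP6 ran from 332 in P1 to 5348 in N2, with a 95% interval of -2.45 to 2.43 for its difference. A 2-fold change of DUSP6 could therefore not have been told from none. The other DUSP4 probe gave -0.32, also without a call. Without SC P5 the count was 3 and without SC P10 it was 4, with FOSL1 lost in both cases. The eSLC medium held a MEK inhibitor and an FGF receptor inhibitor and the SC medium held serum, and their part in these values cannot be told apart from cell type.

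**Figure D5:**
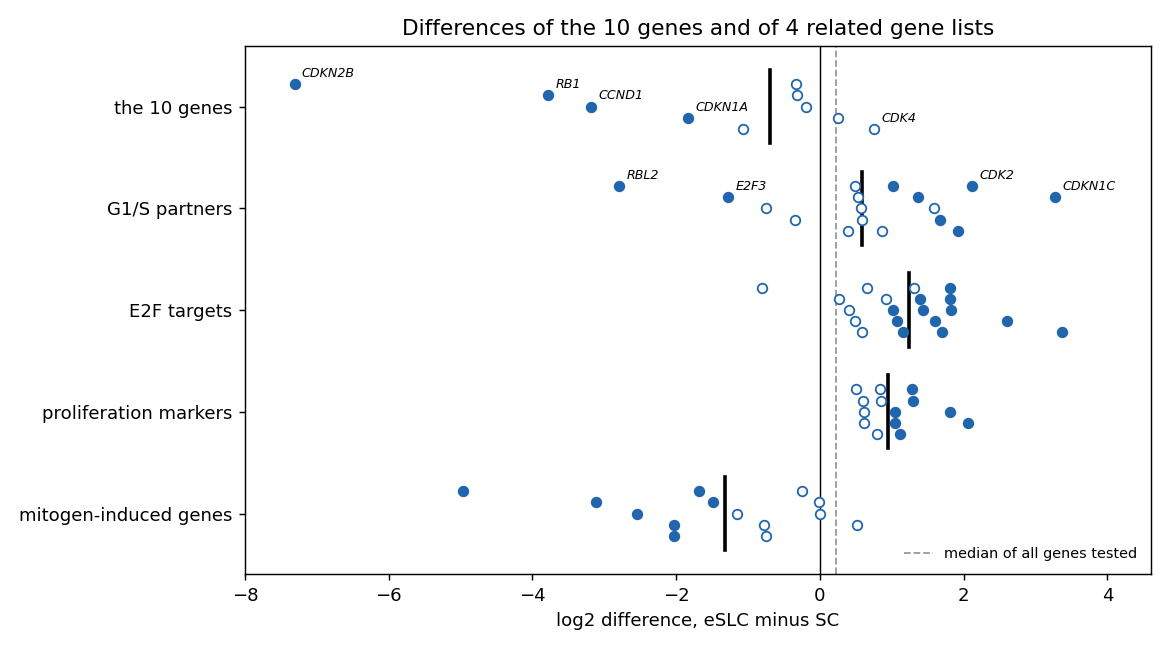
Log2 difference, eSLC minus SC, of the 10 genes and of the tested genes of 4 related lists, with filled points for calls, a black bar at the median of each list and a dashed line at the median of all genes tested. CDKN2B, whose value depends on the floor, lies furthest down. E2F targets and proliferation markers lie almost wholly above 0, and mitogen-induced genes lie mostly below.

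The 12 housekeeping genes tested gave 0 calls by limma, with a median of 0.17. The methods' t-test gave 0 calls as well, and 1 gene, YWHAZ, had an unadjusted p under 0.05. Without N7 limma called 1 of them, GAPDH, higher. As bulk samples were measured, fewer cells of a type and less RNA per cell cannot be told apart for any of these genes. Cross-hybridization of RNA from the murine feeder cells was not tested, since the sequences of the array probes were not analysed here.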

How the data were processed

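Labelled RNA of 6 eSLC and 2 SC samples was hybridized to 8 arrays. The authors scanned them with Feature Extraction version 11.5.1.1, normalized them with GeneSpring GX, and deposited linear signal intensities of each spot and a table of processed intensities whose normalization is not described further in the sources used here. For some genes that table held nearly the same value on the 2 arrays of a group. CCND2 stood there at 74244 in N2 and 75397 in N7, against scaled scanner signals of 6483 and 20751. CDKN1A stood at 51091 on both SC arrays. The spread between arrays in fits of that table is therefore not that of the scanner signals. In 6 of the 8 deposited files the processed signal did not follow the other signals (Spearman correlation 0.161 to 0.216, against 0.973 in I2 and 0.971 in N2), so the background-subtracted signal was used.

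Control spots and 1 to 11 outlier spots per array were left out, and no spot was saturated. Spots of a probe were averaged, divided by the 75th percentile of the array, raised to a floor of 13.3, the highest of the arrays' lowest signals well above background, and taken to log2. That percentile was 75.3 to 136 times the lowest such signal of its array. Of 43653 probes 26743 were named through RefSeq accessions, and each gene was represented by its brightest probe. A test was made for the 10956 genes that in 1 or more groups were well above background on both arrays. The 4 group means were fitted over 8 arrays in R version 4.3.3 by limma version 3.58.1, all eSLCs being the mean of the 3 origins, after the step had been tested on simulated data. Plots were made in Python version 3.11.15 with matplotlib version 3.10.9.

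The 10 genes and the lists (G1/S partners, E2F targets, proliferation markers, mitogen-induced genes, cell type markers and housekeeping genes) were chosen with earlier results of these data known. Some genes and 1 further list are not reported here. All 10 genes are named with every probe, any G1/S partner may be named, and of the other lists at most 4 genes called higher and 4 called lower in eSLCs against SCs, those that differed most, with defining markers given by level. YWHAZ, GAPDH, CDC7, DUSP4, DUSP6, SPRY4, PDGFRA and SOX17 were named after their values were seen. The alternatives were normexp background correction with an offset of 50 on the median signals (the mean signal was not used), scaling to the median, quantile normalization, other filters, the authors' table, averaging over the probes of a gene, other groupings of the arrays, the slide as a block, each slide alone, the methods' t-test, and leaving out each array. Fitting each probe on its own was added after the data were seen.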

Additional observations from a re-analysis of the deposited data

How the results depend on the processing

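CCND1, RB1 and CDKN2B were called lower in eSLCs than in SCs under every alternative run on arrays of both slides in which they were tested (CDKN2B was not tested under the filter on all 8 arrays). Within slide 1, 0 of the 10 genes were called lower and within slide 2, 1, against 4 over all arrays, and leaving out 1 array gave 3 to 5. CDKN2B made the call within slide 2, also in PA-eSLCs, and its eSLC values there were all set to the floor. CDKN1A lost its call in 8 of 23 alternatives. The sign changed for genes that were not called: CCND2 was 0.05 within slide 1 and -0.47 to 0.09 without 1 array, CDKN1B was -0.25 in the authors' table, E2F1 was 0.53 within slide 1 and -1.08 to 0.43 without 1 array, and CDK6 in NT- against IVP-eSLCs was 0.00 to 2.05 without 1 array. The cause was not tested. Of the related lists, the authors' table gave 3 G1/S partners higher and 1 lower and 2 proliferation markers higher, the SC arrays as 1 sample 2 G1/S partners and 4 proliferation markers higher and 3 mitogen-induced genes lower, and normexp correction 1 G1/S partner lower. Slide 1 and slide 2 alone gave 0 calls in these lists except 1 mitogen-induced gene lower within slide 2. The median of all genes moved from 0.23 to 0.12 with quantile normalization, to 0.11 without a filter and to 0.06 in the authors' table.

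Against IVP-eSLCs, 0 of the 10 genes were called in either direction under any alternative. In IVP-eSLCs against SCs, 5 were called lower in the authors' table and 0 within slide 1, and without 1 array 3 to 4 lower and 0 to 1 higher. In NT-eSLCs against SCs the methods' t-test after Benjamini-Hochberg adjustment and both slides gave 0 lower, and leaving out 1 array 3 to 4. In PA-eSLCs against SCs slide 2 gave 1 lower, and leaving out 1 array 3 to 4.

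Over all genes, in eSLCs against SCs, 2155 were called higher and 1719 lower. The authors' table gave 1358 higher, the SC arrays as 1 sample 1341 higher and 1126 lower, slide 1 0 of each, slide 2 259 and 270, and leaving out 1 array 1300 to 2238 and 1111 to 1780. In IVP-eSLCs against SCs 1937 and 1603 were called. The authors' table gave 1019 higher, the SC arrays as 1 sample 1060 and 960, slide 1 0 of each, the methods' t-test after adjustment 445 and 439, and leaving out 1 array 1095 to 2085 and 971 to 1714. In NT-eSLCs against SCs 1734 and 1528 were called. The authors' table gave 967 higher, the SC arrays as 1 sample 943 and 867, each slide 0 of each, the methods' t-test after adjustment 158 and 153, and leaving out 1 array 880 to 1690 and 863 to 1468. In PA-eSLCs against SCs 2231 and 1633 were called. The authors' table gave 1086 and 1003, the SC arrays as 1 sample 1304 and 1001, slide 2 226 and 259, the methods' t-test after adjustment 939 and 726, and leaving out 1 array 1267 to 2379 and 981 to 1717. Fits of single slides hold fewer arrays, and PA- against IVP-eSLCs could not be fitted within a slide.

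In NT- against IVP-eSLCs, where 0 genes were called, the authors' table gave 93 higher and 5 lower. For some genes that table held near-equal values within a group, so its calls cannot be weighed like those from the scanner signals. The methods' t-test at an unadjusted p under 0.05 with the 2-fold limit gave 5 and 12, and leaving out 1 array 0 to 48 and 0 to 12. In PA- against IVP-eSLCs the authors' table gave 3 lower, the methods' t-test 23 and 61 unadjusted and 1 higher after adjustment, and leaving out 1 array 0 to 1 in each direction. No paired analysis was possible because the labels give every sample the same replicate number.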

Other observations

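In the authors' processed table the order of the origins differed from that of the scanner signals for some of the 10 genes. CCND2 was highest in the PA lines in the scanner signals, at 23315 in P1 and 36673 in P4 with the 75th percentile at 1000. In the authors' table, whose scale is not known, it was lowest there, at 11786 and 11286, against 50273 and 51006 in I2 and I9 and 74244 and 75397 in N2 and N7. CDK6 was highest in the PA lines among eSLCs in that table, at 613 and 632 against 160 to 282 in the other 4, while in the scanner signals P1 and P4, at 119 and 133, lay below 3 of them. These table values are as deposited, and the medians of its columns ran from 119 to 501. After each column was divided by its own 75th percentile, set to 1000, CCND2 was still lowest in P1 and P4, at 6509 and 9176 against 15597 to 54729 in the other lines, and CDK6 was highest there, at 338 and 514 against 51.3 to 206. For CCND1 that scaling turned the order of the IVP and PA lines: as deposited the table read 4391 and 4288 in I2 and I9 and 3622 and 3492 in P1 and P4, and after scaling 1936 and 1311 in I2 and I9 and 2000 and 2839 in P1 and P4. N2 and N7 read 8637 and 8746 as deposited and 6367 and 1954 after scaling, against scanner signals of 1626 and 2119. N2 was thus the highest eSLC line of the scaled table and among the lowest in the scanner signals. In SCs CCND1 read 62488 and 65034 as deposited and 22906 and 37591 after scaling, above every eSLC line on either scale.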
